A study of Schizosaccharomyces pombe with 30 samples.

Results

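The genes num1, mug8 and SPAC8C9.04 lie outside the constitutive heterochromatin of fission yeast, carry short stretches of the histone mark H3K9me2 and were followed across 5 genotypes. The sites were defined by position as 12 of the 1500 filtered 300 bp windows of the series: 8 windows at num1 (II:898501-900900), 1 at mug8 (I:2446501-2446800) and 3 at SPAC8C9.04 (I:3647401-3648300). They were chosen by their fold changes against wild-type in these libraries, for comparing the Clr6-related mutants with clr3D232N. Levels and calls at the 12 windows are therefore descriptions, and no test is attached to them.

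H3K9me2 was measured by ChIP-seq in Schizosaccharomyces pombe grown in rich YES medium at 32°C. The 13 libraries were wild-type replicates B and C, fkh2 replicates A, B and C, prw1 replicates A, B and C, clr6-1 replicates A and B, and clr3D232N replicates A, B and C. Every strain, wild-type included, was the homothallic MAT ΔREIII reporter strain, in which the REIII nucleation element of the mating type locus is inactivated by deletion of its s1 and s2 sites and green, orange and red fluorescent reporters driven by the ade6 promoter are integrated. The fkh2 and prw1 strains carried deletions of those genes, clr6-1 is a hypomorphic allele and clr3D232N encodes a catalytically dead enzyme. The study describes replicates as biological, and each genotype is a single strain number. All values are ChIP counts without input, scaled so that the typical 5 kb bin is equal between libraries.

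Silent chromatin in fission yeast is marked by methylation of histone H3 on lysine 9, which the methyltransferase Clr4 deposits. Constitutive heterochromatin covers centromeres, telomeres and the mating type locus, whereas small islands cover a few genes, mainly meiotic ones, in cells that divide by mitosis. At several islands the RNA-binding protein Mmi1 recognises short hexamers in the meiotic transcript and targets it for elimination. Histone deacetylases act with the methyltransferase: Clr3 is the catalytic subunit of the SHREC complex, and Clr6 is the catalytic subunit of complexes that contain Prw1. The study regards the forkhead protein Fkh2 as a member of Clr6 complexes. Fkh2, Prw1 and Clr6 mutants are called the Clr6-related mutants here.

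The gene num1, also called mcp5, encodes the dynein-anchoring factor that holds dynein at the cell cortex during meiotic prophase. It lies at II:898056-901363 on the plus strand, has 1 exon, and its coding sequence (II:898075-900981) contains all 8 windows. The gene mug8 belongs to a set named for expression in meiosis, lies at I:2445242-2447714 on the plus strand with 3 exons, and has its window in coding sequence of the last exon. SPAC8C9.04 is annotated as an uncharacterized protein at I:3646220-3648784 on the plus strand with 1 exon. Its first and second windows are coding, while 218 bases of the third (I:3648001-3648300) are coding and the others lie in the 3′ UTR. Coordinates are those of the files. Names and sequence are from the RefSeq assembly ASM294v3, whose lengths of chromosomes I, II and III equal those in the files, although the submitters' processing notes name ASM294v2.

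The DNA under the sites is shown for wholly coding windows that range from the most hexamers to none. It is given on the sense strand, with each TTAAAC and TCAAAC, the core hexamers recognised by Mmi1 written as DNA, in capitals. The first num1 window shown has the highest mean level of that site, and the next one holds the most hexamers.
num1 II:899101-899400: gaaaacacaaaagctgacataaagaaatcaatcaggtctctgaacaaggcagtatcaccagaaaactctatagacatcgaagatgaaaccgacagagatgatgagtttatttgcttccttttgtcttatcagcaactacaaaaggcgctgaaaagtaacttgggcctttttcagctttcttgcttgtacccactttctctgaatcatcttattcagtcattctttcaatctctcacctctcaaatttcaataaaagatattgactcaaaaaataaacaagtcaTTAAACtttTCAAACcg
num1 II:899401-899700: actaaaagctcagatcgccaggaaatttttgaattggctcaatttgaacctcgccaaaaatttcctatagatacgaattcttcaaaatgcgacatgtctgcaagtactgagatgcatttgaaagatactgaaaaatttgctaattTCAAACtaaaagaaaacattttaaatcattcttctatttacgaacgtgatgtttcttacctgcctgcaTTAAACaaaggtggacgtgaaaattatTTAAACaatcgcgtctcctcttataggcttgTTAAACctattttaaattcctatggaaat
mug8 I:2446501-2446800: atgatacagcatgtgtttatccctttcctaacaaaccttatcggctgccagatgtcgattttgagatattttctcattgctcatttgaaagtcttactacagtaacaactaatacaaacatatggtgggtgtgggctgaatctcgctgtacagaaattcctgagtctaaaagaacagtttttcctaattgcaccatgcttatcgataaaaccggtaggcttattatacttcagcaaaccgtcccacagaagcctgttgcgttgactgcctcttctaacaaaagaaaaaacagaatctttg
SPAC8C9.04 I:3647701-3648000: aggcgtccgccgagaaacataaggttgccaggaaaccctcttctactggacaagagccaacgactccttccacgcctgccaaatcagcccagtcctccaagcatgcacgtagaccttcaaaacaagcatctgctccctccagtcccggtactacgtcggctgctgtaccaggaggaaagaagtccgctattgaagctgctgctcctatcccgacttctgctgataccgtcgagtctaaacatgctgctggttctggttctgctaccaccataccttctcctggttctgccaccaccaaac
The window II:899401-899700 held 4 matches, a number reached on a given strand by 0.0406% of the 41905 windows of 300 bases that tile the 3 chromosomes. The window II:899101-899400 held 2, the mug8 window held 0 and the SPAC8C9.04 window shown held 0. The SPAC8C9.04 window with the highest mean level, I:3648001-3648300, is not wholly coding, is not shown and held 1.

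Over whole transcripts, num1 had 12 sense-strand hexamers in 3308 bases. Of the 801 protein-coding transcripts between 0.8 and 1.25 times as long, 1 had as many, which was num1 itself, and the median was 2. The mug8 transcript had 7 in 2330 bases, a number reached by 0.817% of 1346 transcripts of similar length. The SPAC8C9.04 transcript had 2 in 2565 bases, reached by 62.5% of 1186 transcripts of similar length. Hexamers were therefore dense in num1 and mug8 and at a typical density in SPAC8C9.04. Among the 12 windows, 6 held a sense hexamer, most of them in num1 and none at mug8. Of all tiled windows 23.6% hold one on a given strand and 41.3% on either strand, but adjacent windows of a gene are not independent draws. The forkhead core TAAACA, which overlaps TTAAAC by 5 letters, was matched on either strand in 6 of the 12 windows and in 30.9% of all tiled windows. A match is a string of letters and not a binding site.

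Base composition set SPAC8C9.04 apart from num1 and mug8, and annotated antisense RNA covered mug8 less than the other sites. GC content was 47.7% to 54.3% in the SPAC8C9.04 windows, above that of 98.3% or more of all tiled windows. It was 32.7% to 38.0% in the num1 windows and 39.0% at mug8, and the median of all tiled windows was 36.0%. Each of the 3 genes is overlapped by an annotated antisense long non-coding RNA, as are 75.4% of the 5113 protein-coding genes. The antisense RNA SPNCRNA.1397 spans all of num1 and SPNCRNA.925 spans all of SPAC8C9.04, a complete overlap found at 7.08% of protein-coding genes. At mug8, SPNCRNA.3101 covers 31.7% of the gene, a share reached by 56.7% of protein-coding genes, and runs through most of the window.

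At num1 the Clr6-related mutants and clr3D232N lay on opposite sides of wild-type. The mean normalized count per 300 bp window was 305 and 222 in wild-type B and C. It was 153, 202 and 138 in fkh2 A, B and C, 112, 124 and 115 in prw1 A, B and C, and 118 and 109 in clr6-1 A and B. It was 475, 613 and 735 in clr3D232N A, B and C. The 8 libraries of Clr6-related mutants all lay below both wild-type libraries and the 3 clr3D232N libraries all lay above them. Taken singly, 6 of the 8 num1 windows lay wholly below wild-type in fkh2 and 8 of 8 in prw1 and in clr6-1. In clr3D232N 8 of 8 lay wholly above it. Of all 1500 windows taken singly, 65.1%, 59.1% and 44.9% lay wholly below wild-type in fkh2, prw1 and clr6-1, and in clr3D232N 6.6% lay wholly above and 75.3% wholly below. How many windows separate in all of these genotypes at once was not counted. On the log2 scale of the summed windows, the differences from wild-type were −0.68 in fkh2, −1.15 in prw1, −1.20 in clr6-1 and 1.20 in clr3D232N. The clr3D232N level was 2.30 times that of wild-type and 3.68, 5.11 and 5.27 times those of fkh2, prw1 and clr6-1. Under scaling to the total count, which shifts the median 5 kb bin of fkh2 by 0.82, the fkh2 difference had the opposite sign (0.14).

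The mug8 window showed the same pair of directions with smaller deficits. Its normalized counts were 229 and 156 in wild-type B and C. They were 133, 146 and 124 in fkh2 A, B and C, 124, 133 and 130 in prw1 A, B and C, and 127 and 163 in clr6-1 A and B. In clr3D232N A, B and C they were 397, 420 and 470. Every clr3D232N library was above every other library, whereas clr6-1 B, with 76 fragments in the window, lay above wild-type C. Of all 1500 windows taken singly, 6.6% lay wholly above wild-type in clr3D232N. How many lay above every other library was not counted. The log2 differences from wild-type were −0.49 in fkh2, −0.55 in prw1, −0.39 in clr6-1 and 1.18 in clr3D232N. With total-count scaling the fkh2 and prw1 differences were 0.32 and 0.11, of opposite sign. The SD between the wild-type libraries on this scale was 0.39 (n = 2), close to the size of these deficits.

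SPAC8C9.04 shared the lower level in the Clr6-related mutants but not the higher level in clr3D232N. The mean normalized count per window was 528 and 314 in wild-type B and C. It was 161, 221 and 139 in fkh2 A, B and C, 114, 135 and 116 in prw1 A, B and C, and 144 and 117 in clr6-1 A and B. In clr3D232N A, B and C it was 388, 383 and 404, between the 2 wild-type values. Its log2 difference from wild-type was −1.26 in fkh2, −1.74 in prw1 and −1.65 in clr6-1, all larger than at num1 and mug8. In clr3D232N the difference was −0.05, and it was −0.43 without wild-type C and 0.32 without wild-type B, so its sign rests on a single wild-type library. With total-count scaling it was 1.04, when the median bin of clr3D232N shifts by 1.09. The clr3D232N level was 2.30, 3.22 and 3.02 times those of fkh2, prw1 and clr6-1.

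Set against their own surroundings, num1 and SPAC8C9.04 in prw1 and clr6-1 were close to the level of flanking chromatin, while mug8 stayed further above it. The level per base of a site was divided by that of the 4 neighbouring 5 kb bins of the same library, so that 1 is the level of the flanks and no size factor is needed. For num1 wild-type had a ratio of 2.63 ± 0.52 (SD, n = 2), against 1.60 ± 0.35 (SD, n = 3) in fkh2, 1.15 ± 0.063 (SD, n = 3) in prw1, 1.13 ± 0.052 (SD, n = 2) in clr6-1 and 5.85 ± 1.27 (SD, n = 3) in clr3D232N. For SPAC8C9.04 wild-type had 3.44 ± 1.06 (SD, n = 2), against 1.50 ± 0.34 (SD, n = 3) in fkh2, 1.11 ± 0.11 (SD, n = 3) in prw1, 1.16 ± 0.16 (SD, n = 2) in clr6-1 and 3.58 ± 0.14 (SD, n = 3) in clr3D232N. For mug8 wild-type had 1.98 ± 0.55 (SD, n = 2), against 1.38 ± 0.11 (SD, n = 3) in fkh2, 1.27 ± 0.045 (SD, n = 3) in prw1, 1.43 ± 0.26 (SD, n = 2) in clr6-1 and 4.25 ± 0.39 (SD, n = 3) in clr3D232N. The remainder of the mug8 bin was itself above the flanks, with means of 1.14 in prw1 and 1.12 in clr6-1. These were 0.96 and 0.99 at num1 and 0.90 and 0.88 at SPAC8C9.04. The mug8 ratios therefore do not show that its window kept more of the mark. The order of the genotype means was clr3D232N, wild-type, fkh2, prw1 and clr6-1 at num1, and clr3D232N, wild-type, clr6-1, fkh2 and prw1 at mug8, where the ranges of the Clr6-related genotypes overlapped. At num1 and SPAC8C9.04 the prw1 and clr6-1 means differed by less than 1 SD. Within fkh2, replicate B was the highest at each site (1.99 at num1, 1.51 at mug8 and 1.88 at SPAC8C9.04). It is also the fkh2 library with the largest share of its fragments in the filtered windows, 50.5% against 30.8% and 36.9% in A and C.

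**Figure D1:**
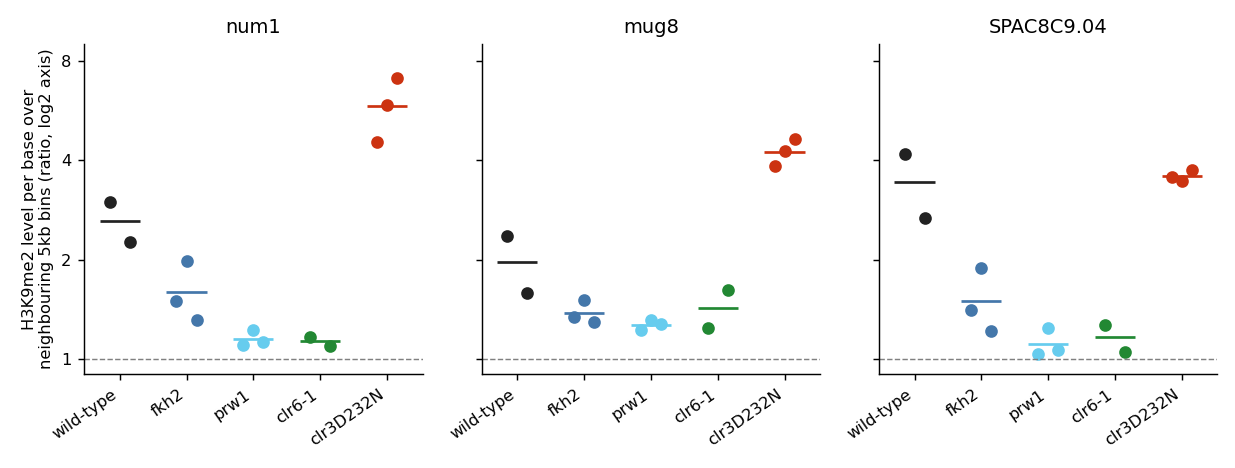
H3K9me2 level per base at each site divided by that of the 4 neighbouring 5 kb bins (log2 axis), with 1 point per library, a bar at each genotype mean and a dashed line at 1. The clr3D232N libraries lie above wild-type at num1 (4.55 to 7.09) and mug8 (3.84 to 4.63) and between the wild-type libraries at SPAC8C9.04 (3.47 to 3.73).

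The highest and lowest windows within num1 were the same in wild-type and clr3D232N. The highest of the 8 in both was II:899101-899400, with normalized counts of 490 and 304 in wild-type B and C and 736, 906 and 1128 in clr3D232N A, B and C. The lowest in both was II:898501-898800, nearest the gene's start, with 157 and 134 in wild-type B and C and 346, 412 and 479 in clr3D232N A, B and C. The highest window was 2.72 times the lowest in wild-type and 2.24 times in clr3D232N. In prw1 the profile was flat, with genotype means between 109 and 126, and in clr6-1 they lay between 95.9 and 132. The window with 4 hexamers, II:899401-899700, was not the highest in any genotype. Across the 8 windows, r of the log2 means with those of wild-type was 0.80 for clr3D232N, 0.76 for fkh2, 0.10 for clr6-1 and −0.26 for prw1, as a description over adjacent windows of a single gene.

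Within SPAC8C9.04 the window nearest the 3′ end, I:3648001-3648300, was the highest in wild-type, with 598 and 375 in B and C. In clr3D232N A, B and C it held 391, 445 and 496, and in prw1 A, B and C it held 123, 131 and 120. The upstream window I:3647401-3647700 was lower in both genotypes, with 464 and 241 in wild-type and 312, 275 and 293 in clr3D232N. The deficit of the Clr6-related mutants was present in each of the 3 windows, at −1.17 to −1.33 in fkh2, −1.47 to −1.96 in prw1 and −1.33 to −1.96 in clr6-1 (log2 fold change, edgeR fit).

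**Figure D2:**
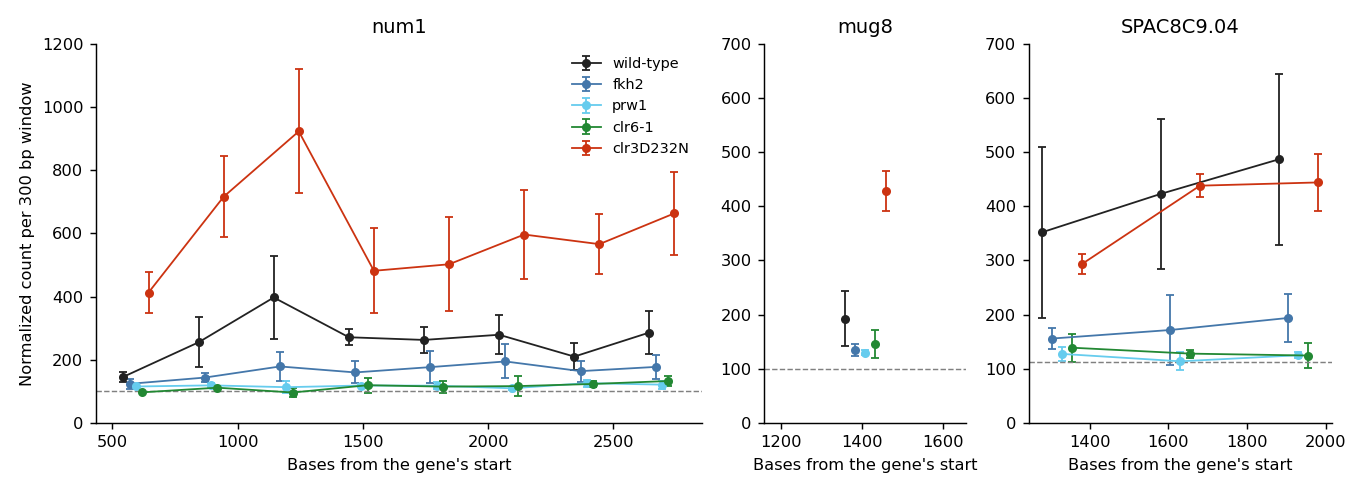
Normalized count of each 300 bp member window (mean ± SD over 2 or 3 libraries) against the distance of the window's centre from the start of the gene, with genotypes offset sideways for legibility and a dashed line at the mean level of the neighbouring bins. The num1 panel has a taller axis than the others. The clr3D232N profile of num1 peaks at 923 where wild-type peaks at 397.

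The calls of the fit over all windows, at adjusted p below 0.005 and more than 1 on the log2 scale with the edgeR quasi-likelihood test and Benjamini-Hochberg adjustment, describe the same windows. Lower than wild-type were 3 of 12 member windows in fkh2, 8 of 12 in prw1 and 4 of 12 in clr6-1, beside 36%, 48.3% and 36.4% of all 1500 windows. In fkh2 the 3 were those of SPAC8C9.04, in prw1 they were 5 of num1 and all 3 of SPAC8C9.04, and in clr6-1 they were II:899101-899400 of num1 and the 3 of SPAC8C9.04. In the Clr6-related mutants 0 of 12 were called higher, beside 0.133% of all windows in fkh2, 0.0667% in prw1 and 0.4% in clr6-1. In clr3D232N 6 of 12 were called higher, 5 of num1 and the mug8 window, beside 0.867% of all windows (13), and 0 were called lower, beside 64.9%. Without wild-type C fewer member windows were called higher in clr3D232N. The counts of lower windows also rested on single libraries: in fkh2 it was 0 without wild-type B or fkh2 C, in prw1 it was 2 without wild-type B and 4 without prw1 A, and in clr6-1 it was 0 without clr6-1 B and 1 without clr6-1 A or wild-type B. Since the calls chose the sites, nothing is read from these shares.

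Against the Clr6-related mutants directly, clr3D232N was called higher in 11 of 12 windows over fkh2, 12 of 12 over prw1 and 12 of 12 over clr6-1. The shares of all windows were 4.13%, 7% and 5.67%. The exception over fkh2 was I:3647401-3647700 of SPAC8C9.04. Over all 1500 windows the median log2 fold change of clr3D232N was −0.76 over fkh2, −0.09 over prw1 and −1.10 over clr6-1, while the num1 medians were 1.77, 2.31 and 2.26. The sites were picked with the directions of both kinds of mutant in view, so these contrasts are a description too.

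The neighbouring chromatin was not used to choose the sites and could be tested. Of the 12 neighbouring 5 kb bins, 0 were called in fkh2, prw1, clr6-1 or clr3D232N with the edgeR quasi-likelihood test, beside 2.5%, 4.17%, 3.89% and 4.05% of all 2520 bins. The bins that hold the sites did not pass the fold change threshold either, reaching 0.71 in clr3D232N at num1 and −0.84 in prw1 at SPAC8C9.04. The 0 therefore does not show that the flanks were unchanged. Without that threshold, 1, 1, 0 and 1 neighbouring bins passed in these genotypes. DESeq2 also called 0 with both thresholds, using a mean dispersion because its dispersion trend could not be fitted on the 5 kb bins. The log2 fold changes in these bins ran from −0.11 to 0.22 in fkh2, from −0.21 to 0.17 in prw1, from −0.15 to 0.16 in clr6-1 and from −0.21 to 0.23 in clr3D232N. At an unadjusted p below 0.05 there were 2, 7, 4 and 6 of them in these genotypes with edgeR and 1, 2, 0 and 3 with DESeq2. The bin with the lowest adjusted p was II:890001-895000, upstream of num1, which holds the 3′ part of psy2, a gene for a protein phosphatase subunit. It held 1534 and 1478 normalized counts in wild-type B and C and 1788, 1733 and 1768 in clr3D232N A, B and C. Its log2 fold change was 0.23 in clr3D232N and 0.22 in fkh2, so the mutants moved the same way there (edgeR adjusted p = 0.000136 and 0.00037). In the 4 bins beside SPAC8C9.04 the log2 fold changes ran from −0.21 to −0.04 over the 4 mutants.

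**Figure D3:**
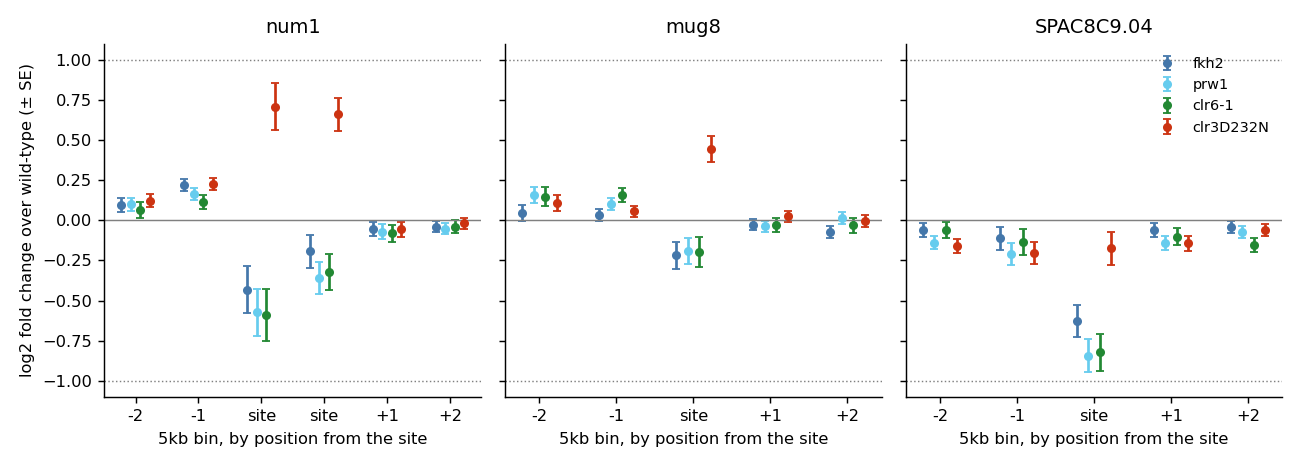
Log2 fold change over wild-type (± SE, edgeR) of the 5 kb bins that overlap each site and of the 2 bins on each side, in order along the chromosome, with dotted lines at the call threshold of 1 and −1. The neighbouring bins lie within 0.23 of 0, while the bins holding num1 lie at 0.71 and 0.66 in clr3D232N and below 0 in the Clr6-related mutants.

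The overlapping bins of num1 and mug8 differed from wild-type in the same directions as their sites, by less. In clr3D232N the log2 fold change was 0.71 ± 0.15 and 0.66 ± 0.10 (SE) in the 2 bins of num1, 0.45 ± 0.082 (SE) in the bin of mug8 and −0.17 ± 0.10 (SE) in the bin of SPAC8C9.04. In prw1 it was −0.57 and −0.36 at num1, −0.19 at mug8 and −0.84 at SPAC8C9.04. None of these passed the threshold of 1. The windows made up 48.7% and 39.9% of the fragments of the num1 bins in wild-type B and C, 26.2% to 29.5% in prw1 and 60.5% to 66.4% in clr3D232N, in 24.0% of their length. Each fragment is counted once, because in 3 fully windowed 15 kb blocks the windows summed to the bins in every library.

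The rest of each overlapping bin was therefore measured by subtraction, a measure added after the values were seen. Around num1 it was 0.92 to 1.01 times the flanking level in the 8 Clr6-related libraries, 1.00 and 1.07 in wild-type B and C, and 0.94, 1.03 and 1.13 in clr3D232N A, B and C. The clr3D232N range overlapped the others, and prw1 C at 1.01 lay above wild-type B. The fkh2 libraries (0.93 to 0.96) and the clr6-1 libraries (0.99 in each) lay wholly below wild-type. Outside the filtered windows of num1, prw1 and clr3D232N were thus not separated from wild-type. Around mug8 the rest of the bin was 1.37 and 1.28 in wild-type B and C, 1.10 to 1.25 in the Clr6-related libraries, and 1.49, 1.68 and 1.74 in clr3D232N A, B and C, without overlap between the 3 sets. How many of all bins separate in this way was not counted, so nothing is read from that separation. Among the 1500 filtered windows taken singly, 65.1%, 59.1% and 44.9% lay wholly below wild-type in fkh2, prw1 and clr6-1. In clr3D232N 6.6% lay wholly above it. Those are enriched windows and give no matching share for the rest of a bin. Around SPAC8C9.04 the rest of the bin was 0.87 to 0.95 in the Clr6-related libraries, 1.12 and 1.08 in wild-type B and C, and 0.96, 1.02 and 1.14 in clr3D232N A, B and C. There too the Clr6-related libraries lay wholly below wild-type, while clr3D232N overlapped it.

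Within a list of meiotic genes, targets of Mmi1 and sites of facultative H3K9 methylation, num1 and mug8 sat at one end of a range. The sites were chosen by their fold changes in these libraries, so this position follows in part from the choice and is a description. Of 11 listed genes, 7 had a filtered window within 1 kb, namely the 3 sites, the islands mei4, ssm4 and mcp7, and mug9. The other 4 (rec8, spo5, crs1 and mbx2) had none, and the 5 kb bins over them were between 0.85 and 1.48 times the median bin of their library. On this measure the mean of mbx2 was 1.35 in wild-type, and that of num1 was also 1.35. It was 1.05, 1.09, 1.10 and 1.14 for mbx2 in fkh2, prw1, clr6-1 and clr3D232N, whereas num1 had 2.15 in clr3D232N. The transcription factor gene mei4 is the master regulator of middle meiotic genes, ssm4 encodes a microtubule-associated protein of meiotic nuclear movement and mcp7 encodes a protein of meiotic recombination. Levels of listed genes are over all windows within 1 kb of the gene. The 9 windows of mcp7 (I:578401-581100) therefore also cover ubp8, the 10 of ssm4 also but1 and the 3 of mug9 also SPCC70.08C. On this measure the mean levels in wild-type were 1645 ± 567 (SD, n = 2) normalized counts per window at mei4, 879 ± 297 (SD, n = 2) at ssm4 and 722 ± 238 (SD, n = 2) at mcp7. The sites were lower in wild-type, at 263 ± 58 (SD, n = 2) for num1, 193 ± 51 (SD, n = 2) for mug8 and 421 ± 151 (SD, n = 2) for SPAC8C9.04, and mug9 had 310 ± 78 (SD, n = 2). In clr3D232N, num1 reached 608 ± 130 (SD, n = 3) and mcp7 857 ± 226 (SD, n = 3). The 3 windows of the mcp7 set called higher in clr3D232N lie over ubp8.

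In prw1 the 7 genes had similar levels, whereas in fkh2 they ranged from 135 at mug8 to 305 at mei4. In prw1 the mean per window lay between 101 at mcp7 and 129 at mug8, with mei4 at 128 and num1 at 117. The log2 deficits in prw1 were −3.64 at mei4, −2.87 at ssm4, −2.79 at mcp7, −1.74 at SPAC8C9.04, −1.25 at mug9, −1.15 at num1 and −0.55 at mug8, in the same order as the wild-type levels. In clr3D232N the log2 differences were 1.20 at num1, 1.18 at mug8, 0.87 at mug9, 0.25 at mcp7, −0.02 at ssm4, −0.003 at mei4 and −0.05 at SPAC8C9.04. All clr3D232N libraries exceeded both wild-type libraries at num1, mug8 and mug9, and at none of the other 4, beside 6.6% of all 1500 windows taken singly. SPAC8C9.04 thus sat with mei4 and ssm4 in clr3D232N while it was closer to num1 in wild-type level. Whether the sites differ from these islands in their response was not tested.

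**Figure D4:**
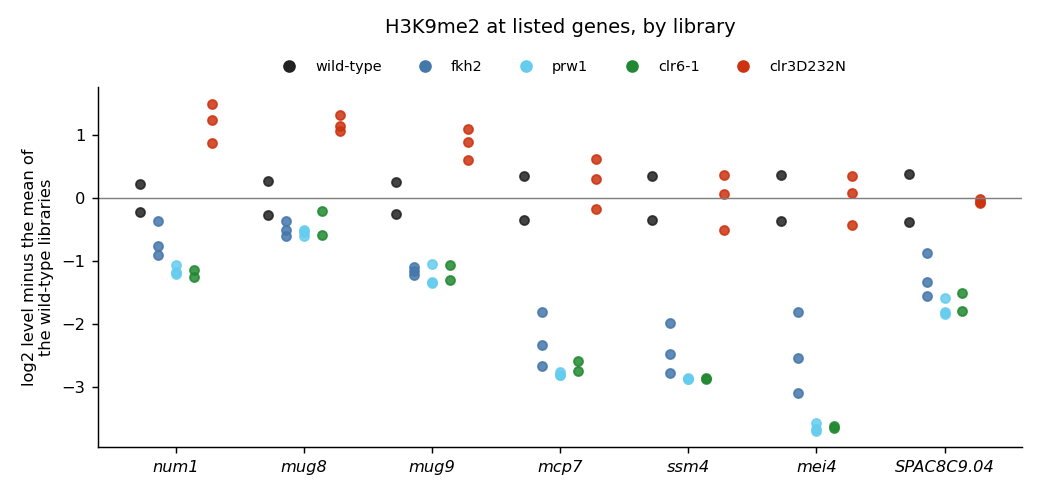
Log2 level of each library minus the mean of the 2 wild-type libraries, for the 7 listed genes with filtered windows. All windows within 1 kb of a gene are counted, and genes are ordered with num1 and mug8 first and SPAC8C9.04 last. The clr3D232N points lie above both wild-type points at num1, mug8 and mug9 but not all of them do at mcp7, ssm4, mei4 or SPAC8C9.04, while the Clr6-related points lie below 0 throughout.

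Among the other 81 clusters of filtered windows, those with the pattern most like each site over the 13 libraries were also small. For num1 they were III:2368201-2369700, which covers mug9 and SPCC70.08C (r = 0.96), the mug8 window (r = 0.95), and I:578401-581100, which covers mcp7 and ubp8 (r = 0.94). For mug8 they were the mug9 cluster (r = 0.96), num1 (r = 0.95) and the mcp7 cluster (r = 0.87). For SPAC8C9.04 they were mei4 at II:1473301-1475100 (r = 0.98), III:1177801-1178400, which covers tum1 (r = 0.98), and I:4533601-4536600, which covers ssm4 and but1 (r = 0.98). The median r over all clusters was −0.02 for num1, 0.03 for mug8 and 0.17 for SPAC8C9.04. The 13 points share genotypes and size factors, so r describes likeness of pattern and carries no test. The tum1 cluster differed from wild-type by −1.16 in fkh2, −1.50 in prw1, −1.47 in clr6-1 and −0.27 in clr3D232N on the log2 scale. The mug9 cluster differed by −1.16, −1.25, −1.19 and 0.87.

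Depth and library composition set limits on these values. The 5 kb bins of a library summed to 4408669 to 12641248 fragments, and a member window held between 40 and 1993 raw fragments. The filtered windows took 70.2% and 57.3% of fragments in wild-type B and C, 27.1% to 29.0% in clr3D232N, 68.4% and 70.3% in clr6-1, and 33.1%, 64.5% and 37.4% in prw1 A, B and C. Wild-type B exceeded wild-type C at each of the 12 windows, and its share in windows was also higher. The part of that share in the results was not tested. The sites passed the authors' filter on mean abundance with ranks of mean level from the low end of the 1500 windows, II:898501-898800 of num1 being the 7th lowest at 187 normalized counts against a median of 1042. The mug8 window ranked 133.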

How the data were processed

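H3K9me2 ChIP-seq libraries of 5 genotypes were analysed, 13 of the 30 samples. The 15 inputs and the wild-type and clr6-1 libraries that the authors removed as outliers were not analysed here. The deposited tables hold unnormalized counts of fragments, one for 2520 consecutive 5 kb bins and one for the 1500 windows of 300 bp that the authors' abundance filter kept. Per the submitters' processing notes the authors used Trimmomatic 0.39, Bowtie2 2.4.2, Picard 2.25.2, SAMtools 1.12, deepTools 3.5.1 and DESeq2 1.30 with genome build ASM294v2. Fragments were counted with csaw, and regions around ade6, ura4, fkh2 and prw1 were set aside. The abundance filter favours windows that are high in some genotype.

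Groups came from sample titles, and columns were matched by strain number and letter. Counts were divided by size factors (0.465 to 2.18) that DESeq2 (version 1.42.0) computed from the 5 kb bins by median of ratios. A site level is the log2 of the summed normalized counts of its windows. Windows and bins were tested in one fit of all genotypes with the edgeR (version 4.0.16) quasi-likelihood test in R 4.3.3, Benjamini-Hochberg adjusted, and called at adjusted p below 0.005 and absolute log2 fold change above 1. The scripts were tested on simulated data. The members, gene lists and tests were chosen with earlier results of these data known. Named genes were the members, genes overlapping or next to them, listed genes with a window within 1 kb, and the 3 most similar clusters of each site (gaps up to 1000 bases). Hexamers and GC content came from RefSeq ASM294v3. Alternatives were DESeq2, TMM or total-count scaling, scaling to the neighbouring bins, the highest window, mutant and wild-type only, the replicate letter as a block, other thresholds, low counts left out and each replicate left out. Figures were drawn with Matplotlib 3.10.9, and summaries used NumPy 2.4.6 and pandas 2.3.3 under Python 3.11.15.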

Additional observations from a re-analysis of the deposited data

How the results depend on the processing

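Of 345 alternative values for site levels, member calls and neighbouring bins, those from TMM scaling kept every site difference within the replicate SD, as did scaling to the neighbouring bins. Scaling to the total count shifted the median 5 kb bin of fkh2, prw1, clr6-1 and clr3D232N by 0.82, 0.66, −0.14 and 1.09 on the log2 scale. Under it the num1 differences from wild-type were 0.14 in fkh2, −0.49 in prw1 and 2.29 in clr3D232N, those of mug8 were 0.32, 0.11 and 2.27, and those of SPAC8C9.04 were −0.44, −1.09 and 1.04. The signs of fkh2 at num1 and of fkh2 and prw1 at mug8 were opposite to those under the median-of-ratios factors. Also under total counts, clr3D232N exceeded prw1 and clr6-1 by 2.79 and 3.63 at num1, exceeded fkh2, prw1 and clr6-1 by 1.95, 2.16 and 2.80 at mug8, and by 1.47, 2.12 and 2.82 at SPAC8C9.04. With the highest window in place of the sum, the num1 differences were −1.15, −1.79 and −2.02 in fkh2, prw1 and clr6-1, and clr3D232N exceeded them by 2.38, 3.02 and 3.25. At SPAC8C9.04 clr3D232N then exceeded prw1 and clr6-1 by 1.83 and 1.84.

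Leaving out each replicate gave −0.91 to −0.45 for fkh2 and −1.38 to −0.92 for prw1 at num1. At mug8 it gave −0.77 to −0.22 for fkh2, −0.82 to −0.28 for prw1, −0.67 to −0.12 for clr6-1 and 0.90 to 1.45 for clr3D232N. At SPAC8C9.04 it gave −2.12 to −1.37 for prw1 and −0.43 to 0.32 for clr3D232N. The excess of clr3D232N over clr6-1 ran from 1.39 to 1.76 at mug8 and from 1.45 to 1.74 at SPAC8C9.04. Counts of member windows called lower ran from 0 to 4 in fkh2, 2 to 9 in prw1 and 0 to 4 in clr6-1, and of those called higher in clr3D232N from 1 to 9. Where wild-type or clr6-1 was left with 1 library, that library was assumed to vary like the other groups.

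Under total counts, 0, 3 and 9 member windows were lower in fkh2, prw1 and clr6-1 and 10 were higher in clr3D232N, and 8 of the 12 neighbouring bins were called in clr3D232N. With the 25% of windows of lowest mean left out, 3 members remained, of which 0, 2 and 1 were lower in fkh2, prw1 and clr6-1 and 2 higher in clr3D232N. With the mutant and wild-type libraries only, 1 was lower in fkh2 and 9 in clr6-1, and DESeq2 and an adjusted p below 0.05 each gave 9 in clr6-1. With no fold change threshold, 1 neighbouring bin was called in each of fkh2, prw1 and clr3D232N. With the replicate letter as a block, 3, 8 and 4 member windows were lower in fkh2, prw1 and clr6-1 and 7 higher in clr3D232N, and 0 neighbouring bins were called. The correlation of same-letter deviations ran from −0.72 to 0.66 with a median of 0.10, above 0.1 in 12 of 22 pairs. For pairs of other letters it ran from −0.72 to 0.72 with a median of −0.10, above 0.1 in 18 of 45. Whether a letter marks a shared batch was not tested. The mug8 site rests on a single window of 76 to 914 fragments per library, and wild-type on 2 libraries.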

Other observations

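Of the 13 windows called higher in clr3D232N than in wild-type, 7 lay outside the 3 sites. The first 3 were adjacent, at I:580201-581100 over ubp8, a ubiquitin protease gene next to mcp7, and 1 lay in ssm4 at I:4536301-4536600. The ubp8 window I:580501-580800 held 316 and 197 normalized counts in wild-type B and C and 694, 808 and 930 in clr3D232N A, B and C, while the Clr6-related libraries held 99.8 to 139. At the window of mug9, a gene named for expression in meiosis, at III:2369401-2369700, the counts were 287 and 200 in wild-type B and C and 473, 590 and 686 in clr3D232N A, B and C. These windows thus showed the pair of directions of num1 and mug8. The remaining 2 windows, at III:24901-25200 and in SPCC569.03 at III:2430901-2431200, were low in wild-type (56.6 and 63.3 in the first, 95.7 and 61.4 in the second) and higher in the Clr6-related mutants too (91.7 to 421). No cause was tested for either pattern.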
